A study of Rattus norvegicus with 19 samples.

Results

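Atf3, Jun, Sox11, Klf6 and Smad1 encode transcription factors known from sensory neurons whose axons have been injured, and their transcripts were followed in the T11 dorsal root ganglion while its own cutaneous nerves were left intact. The genes were taken by name, as all probe sets whose platform gene symbol is one of these 5, which gave 5 of the 14217 genes and 10 of the 31042 probe sets tested. Atf3 and Sox11 had 1 probe set each, Smad1 had 2, and Jun and Klf6 had 3 each. For each gene the probe set with the highest mean over all arrays is called the leading one.

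A dorsal root ganglion contains the sensory neuron bodies of its segment, together with satellite glia, Schwann cells, macrophages, vessels and connective tissue. All 19 rats were adult female Sprague-Dawley animals, and each gave a single T11 ganglion and 1 array. In the 7 day 14 rats and the 7 day 7 rats the dorsal and lateral cutaneous nerves of T9, T10, T12 and T13 had been transected on one side, so that intact T11 axons sprouted into the neighbouring denervated skin, and the 5 naive rats had no operation. Because naive rats were not operated, the effect of surgery as such and that of denervation cannot be told apart. A further naive rat named in the labels was not analysed here.

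The values are log2 expression levels, so a difference of 1 unit is a 2-fold difference, and they say nothing of the relative abundance of different probe sets. Defining markers of sensory neurons were high on every array, from 13.5 to 13.7 for the neurofilament gene Nefh and from 7.81 to 8.63 for Pou4f1, a transcription factor of sensory neurons. Transcripts of skeletal muscle, which lies beside the ganglion, had a mean over 9 of 10 marker genes of 6.36 to 8.43 at day 14, 6.23 to 9.89 at day 7 and 6.38 to 10.40 in naive rats. Day 14 replicate 2, day 7 replicate 7 and naive replicate 1 had the highest muscle mean of their groups. The array design gives no read depth, and the number of arrays limits the precision. In a whole ganglion, fewer cells of a type and less RNA per cell cannot be told apart.

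When a peripheral axon is cut, stress kinase signals that travel from the injury to the cell body activate Jun, and Atf3 is switched on in the injured neuron. Both belong to the basic leucine zipper family and bind DNA in pairs, as parts of AP-1 and related ATF complexes. Sox11, a transcription factor of developing neurons, Klf6, a zinc finger protein, and Smad1, which carries signals of bone morphogenetic proteins (BMPs), have each been tied to the regrowth of axons. Atf3 is little expressed in intact sensory neurons and is widely used as a marker of axon injury in the ganglion.

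AP-1 pairs recognise TGACTCA, and ATF or CREB pairs recognise TGACGTCA, the cyclic AMP response element. The near match TGACATCA is a site for Jun and ATF pairs in the JUN promoter of humans. Promoters from RefSeq on assembly GRCr8, taken from 250 bases before to 50 bases after the gene start, were searched on both strands for these 3 motifs, which do not overlap in the matches shown. Further motifs (GC box, BMP Smad element, TATA box and CCAAT box) were searched as well and are not marked here. The motifs were chosen after the expression values were seen. Of the 5 genes, Sox11, Klf6 and Smad1 had a promoter there, while Atf3 and Jun were not matched. Stretches are shown for Sox11 and Klf6, the members with a match, and for Sprr1a, a cornified envelope gene induced by nerve injury whose level followed that of Atf3 over the arrays, as described further on. Capitals mark the matches.
Sox11: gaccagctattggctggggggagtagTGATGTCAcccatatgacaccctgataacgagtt
Klf6: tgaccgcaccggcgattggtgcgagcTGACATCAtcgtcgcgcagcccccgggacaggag
Sprr1a: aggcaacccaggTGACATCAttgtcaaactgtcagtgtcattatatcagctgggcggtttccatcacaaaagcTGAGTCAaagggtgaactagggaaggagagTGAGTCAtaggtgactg

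The Sox11 stretch is chr6:49738812-49738871 on the minus strand, and its capitals are TGACATCA read on the opposite strand. The Klf6 stretch is chr17:69458577-69458636 on the minus strand, with TGACATCA as printed. The Sprr1a stretch is chr2:180752726-180752845 on the minus strand and holds TGACATCA once and TGAGTCA, the opposite strand of TGACTCA, at the other marked sites. None of the promoters of Sox11, Klf6 and Smad1 held TGACGTCA or TGACTCA, and Smad1 held none of the 3 motifs. Among other genes whose level followed that of Atf3, Tslp held TGACATCA, while Vip and Gal held none of the 3 motifs. The promoters of Npy, Timp1 and Gadd45a, named further on, also held none of them. Among all 33469 promoters of the table, 4.34% held TGACATCA, 4.63% held TGACTCA and 1.83% held TGACGTCA. These matches describe letters in a window and were not measured as binding sites.

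The comparisons asked which transcripts differ from the naive state during the presumed start of sprouting (day 7) and its continuation (day 14). No probe set of the 5 genes passed limma's adjusted p of 0.05 in any comparison. At day 14 against naive the count was 0 of 10, beside 0.139% of all probe sets, and the smallest adjusted p was 0.0726, for Jun. At day 7 against naive it was 0 of 10 beside 0% of all, and for day 14 against day 7 again 0 of 10 beside 0%. An unadjusted limma p under 0.05 was met at day 14 against naive by 5 of 10 probe sets (Atf3, the 3 of Jun and the leading one of Klf6, which alone was lower), beside 19.7% of all probe sets. At day 7 against naive it was met by 3 of 10, all of Jun, beside 8.7% of all. For day 14 against day 7 it was met by 1 of 10, a Klf6 probe set, beside 11.3% of all. Exact permutation tests at the same unadjusted level also gave 5, 3 and 1 of 10, with Sox11 in place of the leading Jun probe set at day 14. The median log2 difference over the 10 probe sets was 0.10 at day 14 and 0.12 at day 7, against 0.02 and 0.01 over all probe sets. Both comparisons with naive use the same 5 naive arrays.

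**Figure D1:**
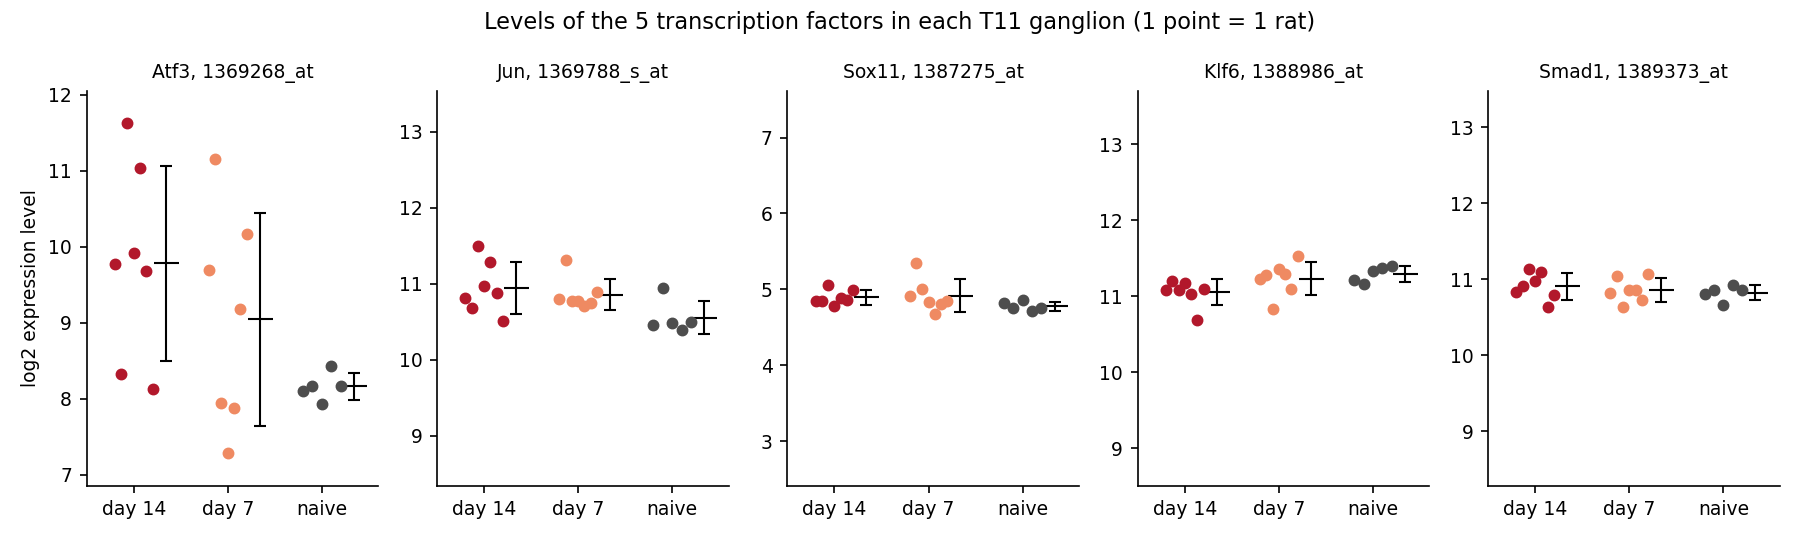
Log2 expression level (vertical axis, the same span of 5.2 units in every panel) of the leading probe set of each gene in each rat, with day 14 left, day 7 in the middle and naive at the right. Points are rats, and the bar beside them is the mean with 1 SD: Atf3 spans 8.12 to 11.63 at day 14, 7.28 to 11.15 at day 7 and 7.94 to 8.44 in naive rats, while the other 4 genes spread far less.

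Among operated rats, Atf3 was the member whose level differed most from rat to rat. At day 14 its lowest level was 8.12, its median 9.77 and its highest 11.63. At day 7 the lowest was 7.28, the median 9.18 and the highest 11.15, and the naive rats had 8.10, 8.17, 7.94, 8.44 and 8.17. The naive rats lay close together, and 5 of 7 rats at day 14 and 4 of 7 at day 7 were above every one of them. The other rats at day 14, replicates 2 and 7, were within the naive range, as was replicate 3 at day 7, while replicates 4 and 5 at day 7 were below it, so the groups overlapped.

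The mean Atf3 level was 9.78 ± 1.28 at day 14 (SD, n = 7), 9.04 ± 1.40 at day 7 (SD, n = 7) and 8.16 ± 0.18 in naive rats (SD, n = 5). Day 14 minus naive was 1.62 ± 0.61 (SE) log2 units, a 3.07-fold higher level, with a 95% interval of 0.35 to 2.89, a limma p of 0.015 and an adjusted p of 0.166. Day 7 minus naive was 0.88 ± 0.61 (SE), with an interval of -0.39 to 2.15 and a limma adjusted p of 0.715. Without day 7 replicate 2, the highest rat of its group, that difference was 0.53. Day 14 minus day 7 was 0.74 ± 0.56 (SE), with an interval of -0.42 to 1.90 and a limma adjusted p of 0.631, and it was 0.43 without day 14 replicate 3, the highest rat of its group. Exact two-sided permutation tests gave an unadjusted p of 0.0328, 0.201 and 0.313 for these 3 differences of Atf3. The SEs and intervals from limma use a spread shared by the groups, which does not allow for SDs as unequal as these. Unequal spread limits the permutation tests against naive as well.

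The spread among operated rats set Atf3 apart from most transcripts on the array. Its SD of 1.28 at day 14 was met by 0.087% of all probe sets, and its SD of 1.40 at day 7 by 0.0677%, while 26% had at least its SD of 0.18 among naive rats. From the lowest to the highest rat its level differed 11.3-fold at day 14, 14.6-fold at day 7 and 1.41-fold in naive rats. The ratio of its SD at day 14 to that in naive rats was 7.13, where the median probe set had 1.03 and 0.158% had at least as much. At day 7 that ratio was 7.80, where the median was 1.07 and 0.164% had at least as much. With naive SDs from only 5 rats these ratios are imprecise, and no test was made of them.

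In descending order of Atf3 the rats began with day 14 replicate 3 at 11.63, day 7 replicate 2 at 11.15 and day 14 replicate 5 at 11.04. In these 3 rats Atf3 was 3.46, 2.99 and 2.88 log2 units above the naive mean. Day 14 and day 7 rats were mixed along this order, although the 3 lowest operated rats were all from day 7 (replicates 3, 5 and 4). Between the lowest operated rat above the naive range, at 9.18, and the highest naive rat, at 8.44, there was a gap. Rat codes in the labels open with AI, AJ or AK, a prefix whose meaning is not stated, and AI occurred at day 14 alone. Within AJ, Atf3 averaged 10.77 at day 14 (n = 2), 8.59 at day 7 (n = 5) and 8.02 in naive rats (n = 2), a difference of 2.75 for day 14 and 0.57 for day 7 against naive. Within AK it averaged 10.16 at day 7 (n = 2) and 8.26 in naive rats (n = 3), a difference of 1.90. With the prefix as a block in limma, day 14 minus naive was 3.19 for Atf3, where it was 1.62 without the block, and it did not pass the threshold (limma adjusted p = 0.447). Because AI occurred at day 14 alone, the block takes up the AI rats. The day 14 side of the 3.19 therefore rests on the AJ rats (n = 2), which include replicate 3, the rat with the most Atf3.

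Jun is a core subunit of AP-1 and a target of the stress kinase JNK. Its leading probe set had a lowest level of 10.51, a median of 10.88 and a highest of 11.50 at day 14. At day 7 these were 10.71, 10.77 and 11.31, and the naive rats had 10.46, 10.94, 10.48, 10.38 and 10.50. All 7 rats at day 14 and all 7 at day 7 were above the naive median, but naive replicate 2 stood high among naive rats and overlapped with the operated groups.

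By this probe set the mean was 10.95 ± 0.34 at day 14 (SD, n = 7), 10.86 ± 0.21 at day 7 (SD, n = 7) and 10.55 ± 0.22 in naive rats (SD, n = 5). Day 14 minus naive was 0.39 ± 0.14 (SE) log2 units or 1.31-fold (limma adjusted p = 0.16). Day 7 minus naive was 0.30 ± 0.14 (SE; limma adjusted p = 0.574). Day 14 minus day 7 was 0.09 ± 0.13 (SE), with an interval of -0.19 to 0.37. Within prefix AJ, Jun averaged 11.23 at day 14 (n = 2), 10.79 at day 7 (n = 5) and 10.47 in naive rats (n = 2), a difference from naive of 0.77 at day 14 and 0.32 at day 7.

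The other Jun probe sets were 1389528_s_at and 1374404_at, which were designed from the same expressed sequence tag and so are not independent of each other. The suffix _s marks probes that match more than 1 transcript sequence, as in the leading probe set 1369788_s_at. For 1374404_at the level was 7.49, 7.58 and 7.93 as lowest, median and highest at day 14, and 7.29, 7.48 and 7.95 at day 7. The naive rats had 7.13, 7.52, 6.69, 6.83 and 7.23 by this probe set. Here 4 of 7 rats at day 14 and 3 of 7 at day 7 were above every naive rat, and all 14 were above the naive median.

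By 1374404_at, day 14 minus naive was 0.56 ± 0.13 (SE) log2 units or 1.47-fold, with an adjusted p of 0.0726 from limma and an exact two-sided permutation p of 0.00505 before adjustment. Leaving out naive replicate 2, the highest naive rat, gave 0.67 (limma adjusted p = 0.0457), the only setting under which a member passed the threshold. Day 7 minus naive was 0.46 ± 0.13 (SE; limma adjusted p = 0.413). Both differences were lowest with the 3' minus 5' control signal, a measure of RNA quality, as a covariate: 0.405 at day 14 and 0.320 at day 7. Naive replicates 3 and 4 had the highest such signal of all 19 rats (3.52 and 3.69). The highest operated rat, day 7 replicate 2, had 3.38. The same naive rats had the lowest Jun by this probe set (6.69 and 6.83). The part of RNA quality in these differences was not tested further. By 1389528_s_at, day 14 minus naive was 0.47 ± 0.14 (SE) and day 7 minus naive 0.39 ± 0.14 (SE), and their limma adjusted p were 0.107 and 0.455. Over all 19 arrays the 3 Jun probe sets correlated with one another at r = 0.83 to 0.93.

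**Figure D2:**
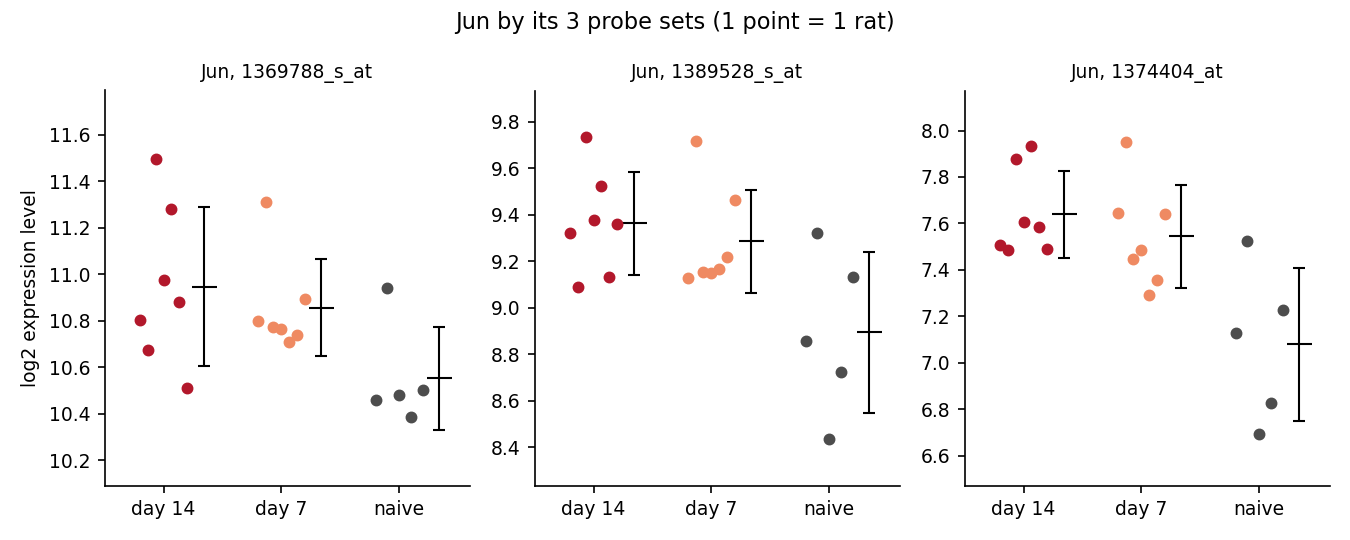
Log2 expression level (vertical axis, the same span of 1.7 units in every panel) of Jun in each rat by its 3 probe sets, with day 14 left, day 7 in the middle and naive at the right. Points are rats and bars are means with 1 SD: in each panel every operated rat is above the median naive rat, and naive replicate 2, the second naive point, lies among the operated rats.

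Sox11 was dim on these arrays. Its lowest, median and highest levels were 4.78, 4.86 and 5.06 at day 14 and 4.68, 4.84 and 5.35 at day 7, and the naive rats had 4.83, 4.75, 4.86, 4.72 and 4.76. Only day 7 replicate 2 had Sox11 above 5.21, the level under which probe sets were treated as dim here. Levels this close to the floor of an array understate differences of the transcript.

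The mean Sox11 level was 4.90 ± 0.10 at day 14 (SD, n = 7), 4.92 ± 0.22 at day 7 (SD, n = 7) and 4.78 ± 0.06 in naive rats (SD, n = 5). Day 14 minus naive was 0.12 ± 0.08 (SE) log2 units, with a 95% interval of -0.06 to 0.29 and a limma adjusted p of 0.45. Day 7 minus naive was 0.14 ± 0.08 (SE), with an interval of -0.04 to 0.31 and a limma adjusted p of 0.673, and 0.07 without day 7 replicate 2. The groups overlapped, although all 7 rats at day 14 were above the naive median. Within prefix AJ, day 14 minus naive was 0.08 (n = 2 each).

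Klf6 is a member of the Krüppel-like family, in which some members favour axon growth and others restrain it. Its leading probe set had a lowest level of 10.68, a median of 11.08 and a highest of 11.19 at day 14. At day 7 these were 10.83, 11.28 and 11.53, and the naive rats had 11.21, 11.15, 11.33, 11.37 and 11.39. All 7 rats at day 14 were below the naive median and 5 of 7 were below every naive rat, whereas day 7 rats lay on both sides.

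By this probe set the mean was 11.05 ± 0.17 at day 14 (SD, n = 7), 11.23 ± 0.22 at day 7 (SD, n = 7) and 11.29 ± 0.10 in naive rats (SD, n = 5). Day 14 minus naive was -0.24 ± 0.10 (SE) log2 units or 0.844-fold, with an interval of -0.45 to -0.04, a limma adjusted p of 0.189 and an exact two-sided permutation p of 0.00758 before adjustment. Day 7 minus naive was -0.06 ± 0.10 (SE; limma adjusted p = 0.894). Within prefix AJ, day 14 minus naive was -0.15 (n = 2 each).

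By the other Klf6 probe sets the mean was also lower at day 14 than in naive rats, by differing amounts. By 1387060_at the means were 9.44 ± 0.15 at day 14 (SD, n = 7), 9.50 ± 0.23 at day 7 (SD, n = 7) and 9.51 ± 0.10 in naive rats (SD, n = 5), and day 14 minus naive was -0.08 ± 0.10 (SE). By 1395557_at they were 5.78 ± 0.38 at day 14, 6.31 ± 0.48 at day 7 and 6.21 ± 0.63 in naive rats. Here day 14 minus naive was -0.43 ± 0.26 (SE), with a 95% interval of -0.97 to 0.11 (limma adjusted p = 0.36). Day 14 minus day 7 was -0.53 ± 0.24 (SE) by 1395557_at (limma adjusted p = 0.416), and 4 of 7 rats at day 14 were below every day 7 rat. Naive replicate 5 had 7.21 by this probe set and the other naive rats 5.53 to 6.37. Over 19 arrays the Klf6 probe sets correlated at r = 0.37 to 0.65, less closely than those of Jun.

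Smad1 relays the signal of BMP receptors to the nucleus. Its leading probe set had a lowest level of 10.63, a median of 10.91 and a highest of 11.14 at day 14. At day 7 these were 10.64, 10.86 and 11.08, and the naive rats had 10.81, 10.86, 10.66, 10.93 and 10.86. The naive rats lay within the ranges of both operated groups, and 3 of 7 rats at day 14 and 2 of 7 at day 7 were above every naive rat.

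The mean Smad1 level was 10.91 ± 0.18 at day 14 (SD, n = 7), 10.86 ± 0.16 at day 7 (SD, n = 7) and 10.82 ± 0.10 in naive rats (SD, n = 5). Day 14 minus naive was 0.09 ± 0.09 (SE) log2 units, with a 95% interval of -0.10 to 0.27 and a limma adjusted p of 0.601. Day 7 minus naive was 0.04 ± 0.09 (SE), with an interval of -0.15 to 0.22 and a limma adjusted p of 0.934. Within prefix AJ, day 14 minus naive was 0.32 (n = 2 each). By the dimmer probe set 1369174_at the differences from naive were -0.03 ± 0.12 (SE) at day 14 and -0.02 ± 0.12 (SE) at day 7. The 2 Smad1 probe sets correlated at r = 0.29 over 19 arrays.

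**Figure D3:**
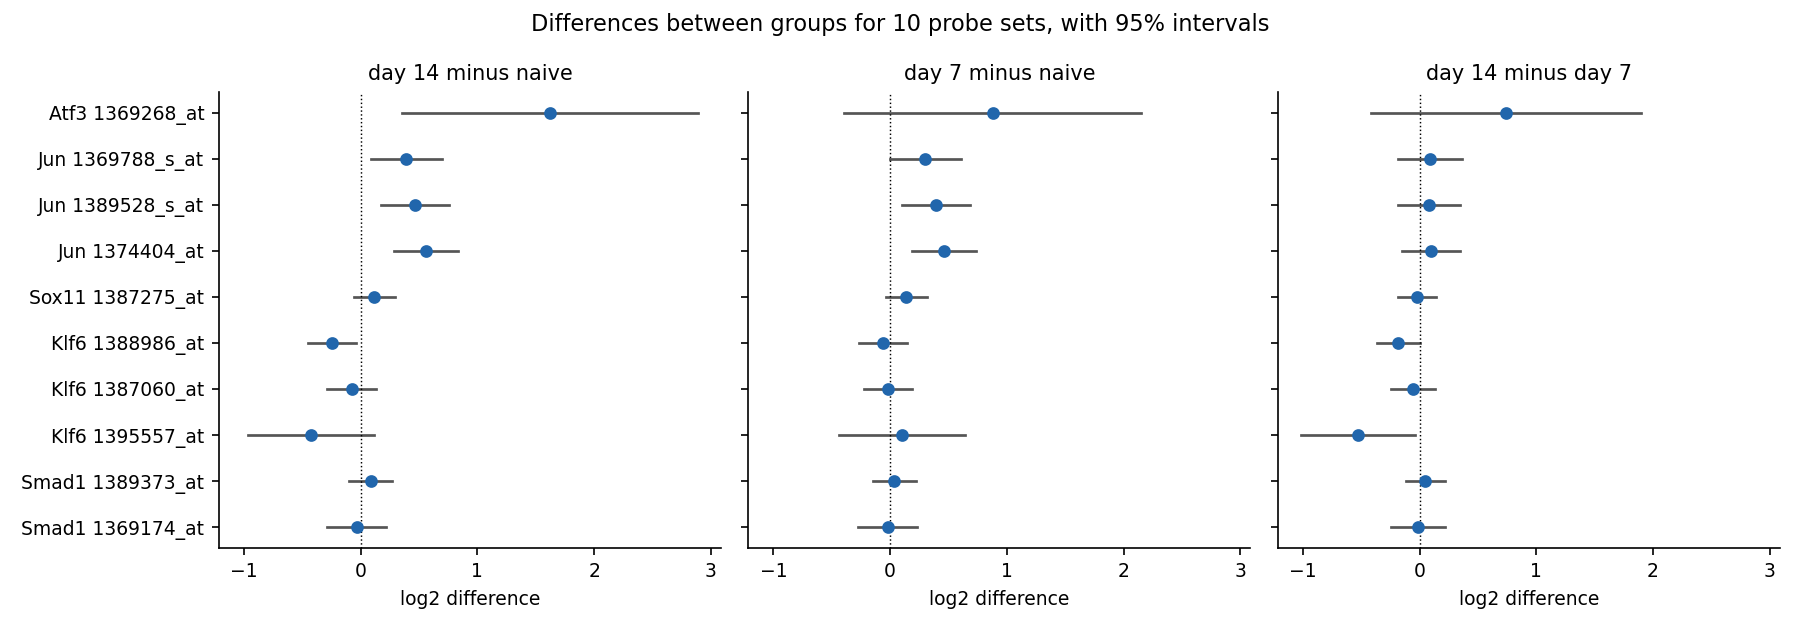
Log2 difference between groups (horizontal axis) for the 10 probe sets (rows), with lines for 95% intervals from limma, for day 14 minus naive, day 7 minus naive and day 14 minus day 7. Atf3 has the largest differences and the widest intervals (0.35 to 2.89 for day 14 minus naive), the Jun probe sets lie at 0.39 to 0.56 for day 14 minus naive, and Sox11 and Smad1 lie near 0.

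Whether the members vary together was examined across the 14 operated rats, by the leading probe sets and over all 10 pairs of genes, with permutation p-values adjusted over the 10. Atf3 and Jun went together: Pearson's r was 0.86 (permutation p = 3e-05, adjusted 0.0003) and Spearman's rho 0.88 (permutation p = 8e-05, adjusted 0.0008). Without the 2 rats farthest from the median of Atf3, r was 0.88. The same 3 rats, day 14 replicates 3 and 5 and day 7 replicate 2, had the 3 highest levels of both genes, with 11.50, 11.28 and 11.31 for Jun. Across the same 14 rats Atf3 correlated with 1389528_s_at and 1374404_at of Jun at r = 0.80 and 0.85.

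Within day 14 the r of Atf3 and Jun was 0.97 (exact permutation p = 0.000595, adjusted 0.00595, n = 7). Within day 7 it was 0.78 (exact permutation p = 0.00893, adjusted 0.0546, n = 7), which did not pass. Among the 7 operated rats of prefix AJ it was 0.83 (exact permutation p = 0.00258, adjusted 0.0258). Because Atf3 levels left a gap above the naive range, r was also taken within the 9 operated rats above that gap. There it was 0.98 (exact permutation p = 0.000135, adjusted 0.00135). This set was chosen by the level of Atf3 after the data were seen, so p-values within it are descriptive only. Spearman's rho was 0.96 within day 14 (adjusted exact permutation p = 0.0278), 0.82 within day 7 (adjusted 0.114), 0.93 within prefix AJ (adjusted 0.0675) and 0.93 within the 9 rats (adjusted 0.00375). Without the 2 rats farthest from the median of Atf3, r was 0.94 within day 14, 0.77 within day 7, 0.82 within prefix AJ and 0.94 within the 9 rats. The scale of the variation differed, since from the lowest to the highest rat at day 14 Atf3 differed 11.3-fold and the leading Jun probe set 1.98-fold.

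**Figure D4:**
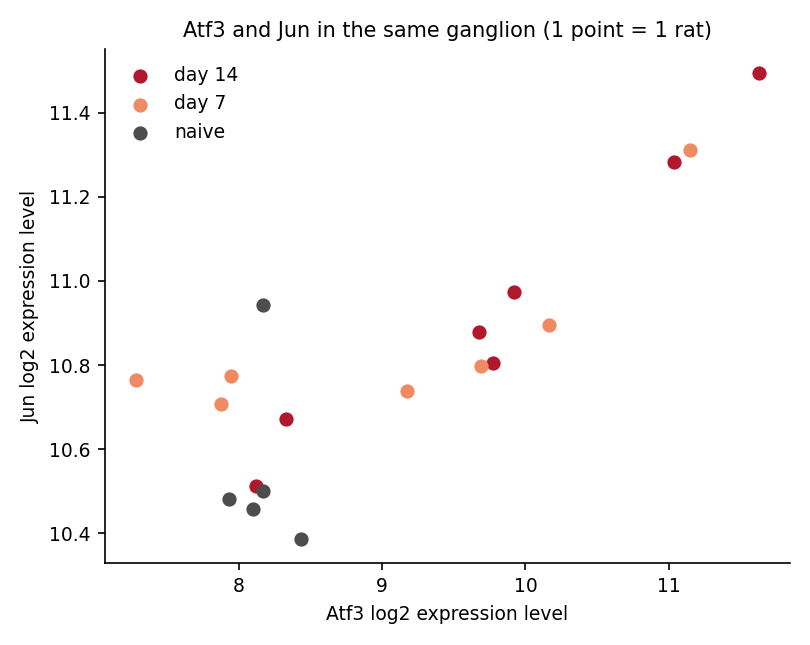
Log2 expression level of Atf3 (horizontal axis) and of Jun by its leading probe set (vertical axis) in each of the 19 rats, coloured by group (day 14, day 7, naive). Operated rats with high Atf3 have high Jun (r = 0.86 over 14 rats), and naive replicate 2 has a Jun level of 10.94 at an Atf3 level of 8.17.

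Of the other 9 pairs, 1 passed over the 14 operated rats, Jun with Smad1, whose r was 0.71 (permutation p = 0.00422, adjusted 0.0211). Its rho did not pass (adjusted permutation p = 0.0888), and its r was 0.53 without the 2 rats farthest from the median of Jun. Within day 14, day 7 and prefix AJ, the r of Jun and Smad1 was 0.74, 0.66 and 0.73 (adjusted exact permutation p = 0.284, 0.227 and 0.19). Atf3 and Smad1 had r = 0.64 (permutation p = 0.0161, adjusted 0.0537) and rho = 0.65 (permutation p = 0.0151, adjusted 0.0755). Within the 9 rats above the naive range of Atf3, this pair had r = 0.83 (adjusted exact permutation p = 0.0321). Its rho there was 0.93 (adjusted 0.00375). As these rats were picked by their Atf3 level, p-values within them are descriptive only. There Jun and Smad1 had r = 0.77 (adjusted exact permutation p = 0.0633) and rho = 0.82 (adjusted 0.0359). Within day 14, day 7 and prefix AJ, the r of Atf3 and Smad1 was 0.65, 0.62 and 0.77 (adjusted exact permutation p = 0.391, 0.237 and 0.19). Atf3 and Sox11 had r = 0.45 and Atf3 and Klf6 r = -0.03, with adjusted permutation p of 0.178 and 0.915, and rho of 0.39 and -0.15, with adjusted permutation p of 0.341 and 0.67. By probe sets other than the leading ones, r with Atf3 over the 14 rats was 0.57 for Smad1 1369174_at and 0.38 for Klf6 1387060_at. For Klf6 1395557_at it was 0.008, with -0.41 within day 14 and 0.66 within day 7.

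Markers of other cells and of RNA quality were set beside Atf3 as 9 relations for each set of rats. Over the 14 operated rats none passed, with r = 0.42 for the mean of 10 macrophage markers (adjusted permutation p = 0.606) and 0.01 for the muscle markers. Within day 14, the mean of 5 measured satellite glia markers of 7 listed went opposite to Atf3, with r = -0.99 (exact permutation p = 0.000992, adjusted 0.00893, n = 7). The macrophage mean went with it there, with r = 0.88 (exact permutation p = 0.00893, adjusted 0.0402, n = 7). Spearman's rho was -0.96 for the satellite glia (adjusted exact permutation p = 0.025) and 0.86 for the macrophages (adjusted exact permutation p = 0.107). Without the 2 rats farthest in the marker mean these r were -0.96 and 0.71. Within day 7 they were -0.18 and 0.13, and within prefix AJ -0.10 and 0.24. Within the 9 operated rats above the naive range of Atf3 they were -0.81 and 0.76. Neither passed there (adjusted exact permutation p = 0.0591 for each). Gene by gene within day 14, r with Atf3 was -0.96 for Gja1, the connexin that couples satellite cells, and -0.84 for Fabp7, but 0.06 for Glul. Among the macrophage markers it was 0.98 for Cd68, 0.92 for C1qa, 0.90 for C1qb, 0.87 for Csf1r and 0.82 for Fcgr1a. For the rest of that list it was lower: 0.46 for Itgam, 0.38 for Aif1, 0.36 for Cd163, 0.30 for Ptprc and -0.08 for Cd14. The satellite glia mean ranged from 9.28 to 9.69 at day 14, 9.29 to 9.52 at day 7 and 9.18 to 9.51 in naive rats. The macrophage mean ranged from 7.08 to 7.74 at day 14, 6.65 to 7.82 at day 7 and 7.09 to 7.50 in naive rats. The part of these cells in the Atf3 level was not tested.

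The genes most like each member were named by Pearson's r over all 19 arrays, as a description without a test. For Atf3 these were the neuropeptide genes Vip (r = 0.97) and Gal (r = 0.96), Csrp3 (r = 0.96), a muscle LIM protein, the cytokine gene Tslp (r = 0.95) and Sprr1a (r = 0.95). After group means were removed their r with Atf3 was 0.93 to 0.97, so the likeness lay within groups. None of the 5 passed limma's threshold at day 14 against naive, with log2 differences of 2.89 for Vip, 1.46 for Gal, 3.04 for Csrp3, 1.21 for Tslp and 1.43 for Sprr1a. In day 14 replicate 3, the rat with the most Atf3, Vip was 5.66 and Gal 2.63 log2 units above the naive mean. In day 14 replicate 7, where Atf3 was in the naive range, Vip was 0.04 above it. In the other operated rats not above the naive range of Atf3, Vip differed from its naive mean by 0.72 (day 14 replicate 2) and by 0.60, 0.74 and -0.45 (day 7 replicates 3, 5 and 4). The highest naive rat for Vip, replicate 3, had 0.44. In day 14 replicate 2, Csrp3 differed from its naive mean by 1.23, Gal by 0.46, Sprr1a by 0.20 and Tslp by -0.09.

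**Figure D5:**
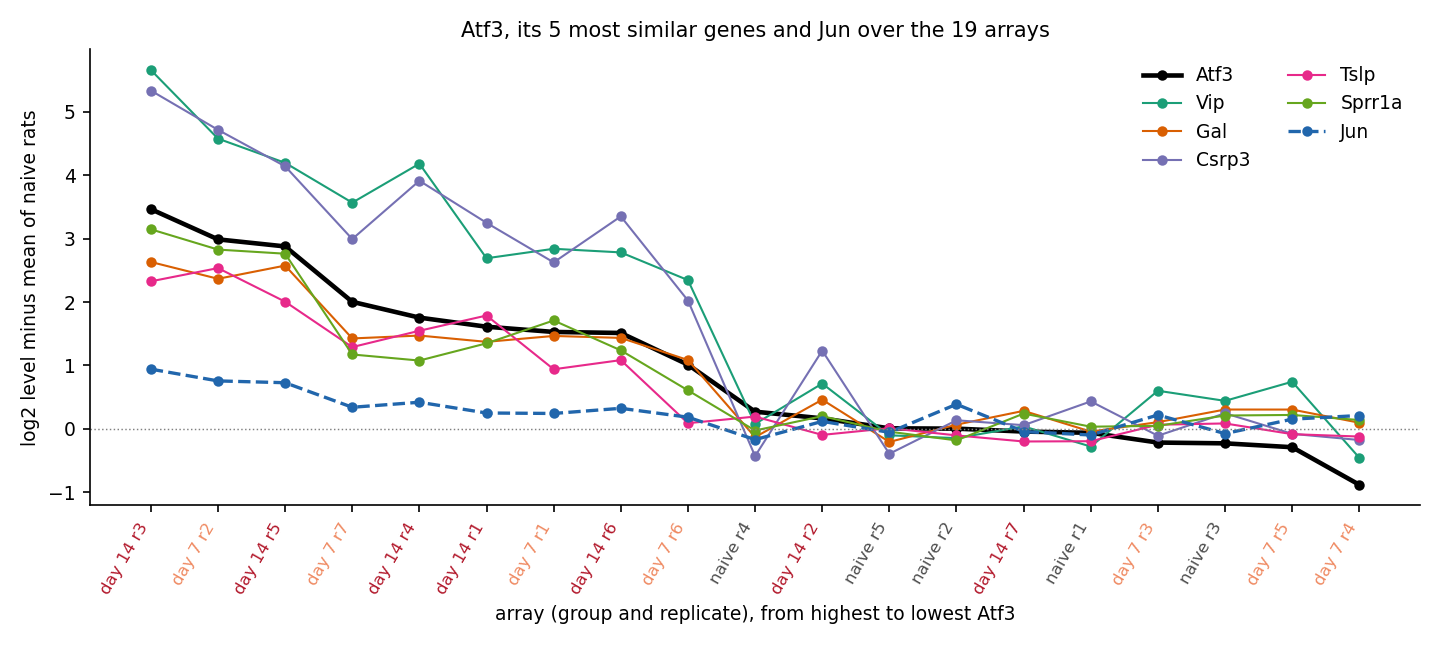
Log2 level minus the mean of the naive rats (vertical axis) for Atf3, its 5 most similar genes and Jun (dashed) on the 19 arrays, ordered from the highest to the lowest Atf3 level, with r for replicate and tick labels coloured by group. Vip is at 5.66 and Gal at 2.63 on the array with the most Atf3, and all 5 similar genes lie within 1.3 units of the naive mean on the arrays from the highest naive rat (naive r4) onwards.

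For Jun the most like genes were Cryba2, a crystallin gene (r = 0.92), PCOLCE2, which encodes a procollagen enhancer (0.91), Il24, a cytokine gene (0.88), Tbxas1, the gene of thromboxane synthase (0.875), and Dtnbp1, the gene of dysbindin (0.874). For Klf6 they were Rassf1, Resf1, Wdr13, Mrs2 and Ubr7, with r of 0.82 to 0.88, and for Smad1 Iqgap1, Pbxip1, Cpne9, Litaf and LOC100912188, with r of 0.79 to 0.85. For Sox11 they were LOC102555173, C1h19orf33, Tifab, Slc44a4 and Ucn, with r of 0.79 to 0.82. With 14216 other genes to choose from over 19 arrays, some r of this size can arise without a relation.

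Effector genes of the axon injury response, which code for neuropeptides, growth-associated proteins and stress proteins, were the list whose median stood furthest from naive at day 14. None of its 34 measured genes of 36 passed limma's adjusted threshold in any comparison. At an unadjusted p under 0.05, 15 were higher and 0 lower at day 14 against naive, where 19.7% of all probe sets met that rule in either direction. At day 7 against naive 10 were higher and 0 lower, where 8.7% of all met it. The median log2 difference over the list was 0.21 at day 14, where it was 0.003 over all genes, and 0.22 at day 7. The smallest p at day 14 were those of Timp1, an inhibitor of matrix proteases (0.62 ± 0.14 SE), Gadd45a, a stress-response gene (0.94 ± 0.23 SE), and Npy, a neuropeptide gene (2.98 ± 0.78 SE). Across the 14 operated rats, 11 of the 34 genes had r of at least 0.8 with Atf3, or 32.4%. Among all genes other than Atf3, the list included, the share was 0.591%. The median r was 0.73 over the list and 0.04 over all genes other than Atf3. The 11 include Vip, Gal, Csrp3 and Sprr1a, which were already named above for their r with Atf3. Flrt3 (r = 0.89) and Stmn4 (r = 0.84) were among them, while Gap43 had r = 0.75, Lif 0.06, Csf1 0.15 and Nrn1 -0.43. The list was drawn up with earlier results of these data known.

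Partners and upstream kinases of Atf3 and Jun gave no call. Of 24 measured AP-1 and ATF family partners of 25, none passed, and at an unadjusted p under 0.05 there were 2 higher (Batf3 by 0.22 ± 0.07 SE and Batf by 0.20 ± 0.09 SE log2 units) and 1 lower (Fosb, at -0.59 ± 0.22 SE) at day 14 against naive, a smaller share than the 19.7% of all probe sets. At day 7 there was 1 higher and 0 lower. Of 12 measured genes of the JNK pathway of 18, 0 met the unadjusted rule at day 14, while 2 were higher and 0 lower by it at day 7, beside 8.7% of all probe sets. The smallest p at day 14 were those of Mapk8ip2, a JNK scaffold (0.18 ± 0.09 SE), Dusp10, a phosphatase of stress kinases (0.12 ± 0.08 SE), and Map3k10, a kinase upstream of JNK (0.12 ± 0.08 SE). Of 12 targets of the integrated stress response 0 met it at day 14, and 1 was higher and 1 lower by it at day 7. At day 14 Asns, the gene of asparagine synthetase, stood at 0.12, Herpud1, a gene of the endoplasmic reticulum, at -0.20 and Sesn2, a sestrin gene, at -0.12. The list medians at day 14 were 0.03, 0.02 and -0.06.

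Genes around Smad1, Klf6 and Sox11 gave no call either, and their counts at day 14 are to be read against the 19.7% of all probe sets with an unadjusted p under 0.05. In the BMP and Smad pathway 27 of 28 genes were measured, and at an unadjusted p under 0.05 there was 1 higher at day 14 against naive, the inhibitory Smad7 (0.29 ± 0.07 SE, limma adjusted p = 0.0726), and 2 lower, the receptor gene Acvr2b (-0.33 ± 0.09 SE) and Id4 (-0.25 ± 0.11 SE). In the Klf family 2 of 12 measured genes other than Klf6 were lower by that rule, Klf16 (-0.32 ± 0.11 SE) and Klf11 (-0.34 ± 0.15 SE), with Klf10 next by p (-0.15 ± 0.08 SE) and a list median of -0.14. In the Sox family 2 of 9 were lower, Sox6 (-0.29 ± 0.11 SE) and Sox13 (-0.28 ± 0.12 SE), while Sox2, next by p, was at 0.30 ± 0.15 (SE), and the list median was -0.10. Among 24 measured transcription factors tied to regeneration other than the 5, 6 were higher by that rule and 0 lower, with Nfil3 (0.33 ± 0.11 SE), Stat3 (0.36 ± 0.14 SE) and Rest (0.16 ± 0.07 SE) having the smallest p and a list median of 0.10. Nfil3, a repressor induced in injured neurons, had r = 0.82 with Atf3 across the 14 operated rats, and Stat3, the mediator of cytokine signals, had r = -0.11. At day 7 against naive, where 8.7% of all probe sets met the rule, it was met by 5 of 27 BMP and Smad genes (2 higher, 3 lower), 1 of 12 Klf genes (lower), 2 of 9 Sox genes (both lower) and 3 of 24 regeneration factors (all higher).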

How the data were processed

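For each of 19 rat genome arrays the authors deposited log2 levels of all probe sets, made with RMA (background correction, quantile normalization and probe summarisation) per the submitters' processing notes, which also name limma. Their versions are not given there. The RNA was linearly amplified in 2 rounds per the labels' protocols, which favours 3' ends. RMA sets the probes of all arrays to 1 distribution before summarisation, so a shift shared by most transcripts would be largely hidden. The medians of the summarised values still ran from 6.702 to 6.743 between arrays. Separate rats are named in the labels, so replicates are biological.

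The table held 31099 probe sets, and 57 controls were left out. Gene names came from the platform annotation, checked through gene identifiers against RefSeq names, so that 20826 probe sets had 1 symbol, 436 several and 9780 none. All 31042 probe sets were fitted with limma 3.58.1 in R 4.3.3 (lmFit and eBayes on the 3 groups together), with Benjamini-Hochberg adjustment within each comparison and a threshold of 0.05. Permutation tests were two-sided, exact up to 9 rats and for differences of means, and otherwise with 100000 resamples in numpy 2.4.6. Against naive, the 7 and 5 arrays can be arranged in 792 ways, which limits how small an exact p can be. The fit was tested on simulated data.

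The text names every member probe set, the 3 genes of each list with the smallest p at day 14 against naive, and the 5 genes most like each member. Some effector genes were named for their r with Atf3 after their values were seen. The members, lists and tests were chosen with earlier results of these data known. Other settings were array weights, moderation, normalization, a dim filter, fits of 2 groups, gene means, blocks, covariates and leaving out arrays. Correlations within rat code prefix AJ and within the 9 rats above the naive range of Atf3 were added after the data were seen. Same-numbered rats did not deviate together (correlations of -0.26 to 0.33), so replicate numbers were not taken as pairs.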

Additional observations from a re-analysis of the deposited data

Results flagged for a closer look

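Single rats that stood apart from the rest of their group, by Dixon's criterion, occurred in 7 of 30 groups of values of the member probe sets, where chance gives about 1 in 20 groups, or 1.5. Probe sets of 1 gene share the same rats and are not independent, so this count is a description. For Jun by its leading probe set, day 7 replicate 2 was highest of its group at 11.31, with the next rat at 10.89, and naive replicate 2 was highest of its group at 10.94, with the next at 10.50. For Klf6 by its leading probe set, day 14 replicate 6 was lowest at 10.68, with the next at 11.03. For Klf6 by 1387060_at, day 14 replicate 5 was highest at 9.74 (next 9.47) and naive replicate 5 highest at 9.69 (next 9.49). For Smad1 by 1369174_at, day 7 replicate 2 was highest at 6.53 (next 6.08) and naive replicate 1 lowest at 5.58 (next 6.06). Atf3 gave no such rat, since its operated rats were spread over the whole range. Day 7 replicate 2, which appears here for Jun and Smad1, also had the highest Atf3 (11.15) and Sox11 (5.35) of its group.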

How the results depend on the processing

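The 30 differences of the 10 probe sets were recomputed under 15 settings and with each array left out, which gave 1002 values. Of these 958 kept their direction and their side of the threshold and 43 turned direction, all of them differences of at most 0.10 log2 units in size as reported, and 1 passed the threshold. That one was Jun by 1374404_at at day 14 against naive without naive replicate 2 (0.67), so leaving out 1 array gave 0 to 1 member past the threshold. Jun and Atf3 kept a positive difference from naive under every setting run. Atf3 at day 14 minus naive lay between 1.31 (without day 14 replicate 3) and 3.19 (rat code prefix as a block). That highest value rests on the day 14 rats of prefix AJ alone. With 1 array left out it lay between 1.31 and 1.90.

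The settings that turned a direction gave the following values, and the cause was not tested. With the prefix as a block these were 0.0239 for Sox11 (day 14 minus day 7) and, for Smad1 by 1369174_at, 0.116 (day 14 minus naive), 0.0552 (day 7 minus naive) and 0.0606 (day 14 minus day 7). With only prefixes found in both groups they were 0.0663 for Sox11 (day 14 minus day 7), 0.00420 for Klf6 by 1387060_at (day 14 minus naive), and 0.116, 0.0552 and 0.0605 for Smad1 by 1369174_at. With the 3' to 5' covariate they were -0.00939 for Klf6 by 1395557_at (day 7 minus naive) and 0.0912 and 0.0951 for Smad1 by 1369174_at (day 14 and day 7 minus naive). Without the array of each group highest in muscle markers they were 0.0178 for Klf6 by 1387060_at (day 14 minus day 7), -0.0240 for Klf6 by 1395557_at and -0.00245 for leading Smad1 (day 7 minus naive), and 0.0524 for Smad1 by 1369174_at (day 14 minus day 7). Array weights gave -0.0343 for Klf6 by 1395557_at (day 7 minus naive) and 0.0140 for Smad1 by 1369174_at (day 14 minus day 7), gene means 0.00593 for leading Klf6 and renewed quantile normalization 0.000746 for Klf6 by 1387060_at (both day 7 minus naive).

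Leaving out 1 array turned the direction of day 7 minus naive for leading Klf6 (-0.11 to 0.0016), Klf6 by 1387060_at (-0.081 to 0.033) and 1395557_at (-0.071 to 0.35), leading Smad1 (-0.0033 to 0.074) and Smad1 by 1369174_at (-0.12 to 0.014). It did so for day 14 minus day 7 of leading Jun (-0.0015 to 0.17), Sox11 (-0.062 to 0.049), Klf6 by 1387060_at (-0.11 to 0.0031) and Smad1 by 1369174_at (-0.048 to 0.082), and for day 14 minus naive of Smad1 by 1369174_at (-0.13 to 0.011).

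With the replicate block, day 14 minus naive was 1.67 for Atf3, and no call changed. Sox11 has no value under the filter on dim probe sets, since it was below 5.21 on all but 1 array. Groups of 5 and 7 arrays, 1 probe set each for Atf3 and Sox11, and shared naive arrays limit what could be called.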
